A study of Mus musculus with 5 samples.

Results

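The genes Wnt4, Wnt5a and Wnt7a encode Wnt ligands of the uterus, and their surroundings were examined for binding of estrogen receptor α (ERα). Members were the ERα peaks that overlapped a window of mm9 holding each gene with about 100 kb on each side, which was 34 of 22424 peaks. Of these, 25 came from the estradiol list of 17240 peaks and 9 from the vehicle list of 5184 peaks. The peaks were mapped by chromatin immunoprecipitation and sequencing (ChIP-seq) in the whole uterus of C57BL/6J mice labelled WT. In the estradiol group, mice without ovaries received 250 ng of estradiol into the peritoneum, and the uterus was taken 1 hour later. The vehicle group received saline in the same way. Both groups had lost their ovaries 10 to 14 days earlier and therefore made little estradiol of their own. Each group was 1 library, made with the same antibody to ERα. The labels state neither the animals' age nor the number of uteri per library. Whole tissue was used, so the cell type in which a site was bound is not resolved, and no difference below has a replicate check. Brackets hold exact 95% intervals for counting error alone, computed as if each peak were independent of its neighbours, so they are too narrow where peaks lie close together. Read numbers are not part of the lists.

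Wnt ligands are secreted lipid-modified glycoproteins that signal to nearby cells through Frizzled receptors, either by stabilising β-catenin or by routes without it. In the mouse uterus Wnt4 is made largely in the stroma and is needed for decidualization, the change of stromal cells around an implanting embryo. Wnt5a acts mostly through routes without β-catenin and shapes the reproductive tract and the crypts where embryos implant. Wnt7a is made in the luminal epithelium and is needed for uterine glands and for the layering of the uterine wall. ERα is the nuclear receptor for estradiol, and it binds DNA either directly at estrogen response elements or through other factors, among them Sp1 at GC boxes.

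The promoters of Wnt4 and Wnt7a are shown because they come from the gene with estradiol peaks over it and the gene without a peak in its window. Each run is the 250 bases before the gene's start in the RefSeq table for GRCm38.p6, a build other than the mm9 of the peaks, so their positions are not to be set beside the mm9 positions given elsewhere. Wnt4 lies on the plus strand (chr4:137277385-137277634) and Wnt7a on the minus strand (chr6:91411354-91411603). The Wnt5a promoter had no entry in the table. Capitals mark GC boxes, GGGCGG on either strand.
Wnt4: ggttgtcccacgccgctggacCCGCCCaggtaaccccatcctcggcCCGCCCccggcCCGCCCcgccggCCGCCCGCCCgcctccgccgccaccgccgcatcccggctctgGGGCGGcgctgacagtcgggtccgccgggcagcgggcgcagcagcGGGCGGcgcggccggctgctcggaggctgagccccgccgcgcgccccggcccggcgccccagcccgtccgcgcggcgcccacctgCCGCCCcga
Wnt7a: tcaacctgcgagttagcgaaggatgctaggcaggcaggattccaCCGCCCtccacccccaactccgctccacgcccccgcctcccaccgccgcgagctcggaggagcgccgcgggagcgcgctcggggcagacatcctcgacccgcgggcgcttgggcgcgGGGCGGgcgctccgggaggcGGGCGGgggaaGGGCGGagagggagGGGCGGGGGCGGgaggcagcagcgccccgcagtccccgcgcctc
Wnt4 had 8 GC boxes, of which one pair overlaps, and Wnt7a had 6. At least 1 GC box was present in 32.7% of the 32851 promoter entries of the table, read over the same 250 bases. The share of entries with as many boxes as these runs is not given here. The half-site of an estrogen response element, TGACC on either strand, was absent from both runs and present in 35.2% of all entries. The full element GGTCANNNTGACC was likewise absent from both and present in 0.0639% of all entries. The Wnt4 run was 85.2% G and C and the Wnt7a run 77.6%, against a median of 52.4% over all entries. Of all entries, 0.143% were at least as rich in G and C as the Wnt4 run and 2.35% as the Wnt7a run.

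The 3 windows differed in how many ERα peaks they held. The Wnt4 window (chromosome 4, 136733000 to 136956000) had 16 peaks in the estradiol list (9.15 to 26.0) and 7 in the vehicle list (2.81 to 14.4). The Wnt5a window (chromosome 14, 29218000 to 29440000) had 9 in the estradiol list (4.12 to 17.1) and 2 in the vehicle list (0.242 to 7.22). The Wnt7a window (chromosome 6, 91213000 to 91462000) held 0 estradiol and 0 vehicle peaks. In the estradiol list the order was Wnt4, Wnt5a, Wnt7a. The intervals of Wnt4 and Wnt5a overlap. That of Wnt5a lies above the upper limit of 3.69 that counting error gives a count of 0. This does not separate the 2 genes, because the Wnt5a peaks lay in groups and the counts depend on the windows' edges. With 50 kb more on each side, Wnt5a held 15 estradiol peaks and Wnt7a 8. In the vehicle list the order was the same, and the intervals of neighbours in it overlap. The ratio of estradiol to vehicle peaks was 2.29 (0.89 to 6.57) at Wnt4 and 4.50 (0.931 to 42.8) at Wnt5a. Both intervals include the ratio of the whole lists, 3.33.

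The windows were then set beside all 10193 windows of 250 kb laid end to end over the chromosomes, which averaged 1.69 estradiol and 0.507 vehicle peaks. Only 0.834% of these windows held 16 or more estradiol peaks, the number at Wnt4, and 0.402% held 7 or more vehicle peaks. The vehicle peaks at Wnt4 included pairs only 0.147 and 0.085 kb apart. With peaks of one list closer than 500 bp joined, Wnt4 held 15 estradiol and 5 vehicle peaks, a ratio of 3. Where these joined counts stand among the windows is not given here. At least 9 estradiol peaks, the number at Wnt5a, were held by 3.97% of windows, and at least 2 vehicle peaks by 11.8%. Windows without an estradiol peak made up 52.1%, windows without a vehicle peak 72.3%, and windows without a peak in either list 50.6%. The absence of peaks at Wnt7a was thus shared by about as many windows as had a peak, whereas few windows were as rich as that of Wnt4 in either library. The tiled windows were laid without regard to genes, so they are not matched to windows centred on a gene. Among windows with any peak, 1.69% held as many estradiol peaks as Wnt4 or more, and 0.814% as many vehicle peaks. Each Wnt window was somewhat shorter than 250 kb, between 222 and 249 kb.

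**Figure D1:**
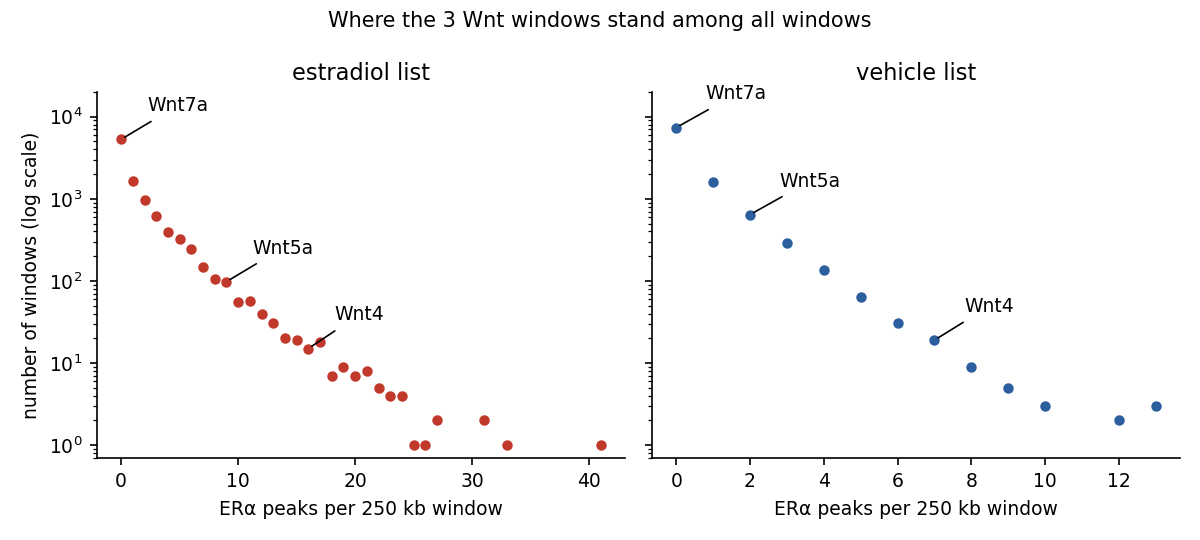
Number of 250 kb windows (log scale) by the number of ERα peaks they hold, for the estradiol list on the left and the vehicle list on the right, with the values of the 3 Wnt windows marked. Wnt4 stands in the sparse tail of both lists with 16 estradiol and 7 vehicle peaks, and Wnt7a at 0 in both.

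Within the Wnt4 window most peaks of the estradiol library lay over the gene or to its right, and those of the vehicle library only to its right. The part of the window between its flanks of 100 kb, 136833000 to 136856000, marks the gene to within the rounding of the window, and is called the gene interval here. It held 4 estradiol peaks and 0 vehicle peaks. The right flank held 11 estradiol and 7 vehicle peaks, and the left flank 1 estradiol peak and 0 vehicle peaks. A run of 7 estradiol peaks with 0 vehicle peaks, from 136689737 to 136716871, ended 16.1 kb outside the window's left edge. The contrast between the flanks therefore depends on where the window ends. Because Wnt4 is on the plus strand, the left edge of the interval marks the gene's start to within that rounding. The right flank lies beyond the gene's end, on the side of Cdc42, the next protein-coding gene in RefSeq. The position of Cdc42 on mm9 was not available. Whether a peak of this flank lies before, over or past Cdc42 is therefore not given. Cdc42 encodes a small GTPase that organises the actin cytoskeleton. Which of these genes a peak acts on was not tested.

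All 4 peaks in the Wnt4 gene interval stood within 4.05 kb at its left edge. The first, 226 bp from 136833069 to 136833294, began 0.069 kb inside that edge, which is closer than the rounding of the window can place the gene's start. The second was the longest of the group, 329 bp from 136834581 to 136834909. The remaining pair were short, 139 bp from 136835979 to 136836117 and 217 bp from 136836901 to 136837117. None overlapped a vehicle peak, and the nearest vehicle peak lay 25.2 to 29.0 kb away. This was the usual case, since 13577 of the 17240 estradiol peaks overlapped no vehicle peak, at a median distance of 61.3 kb. In the vehicle list no peak stood between 136604694 and 136862312, a stretch of 258 kb that holds the whole gene interval. Stretches without a vehicle peak at least that long made up 35.9% of all such stretches, and together 90.5% of all the sequence between vehicle peaks.

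**Figure D2:**
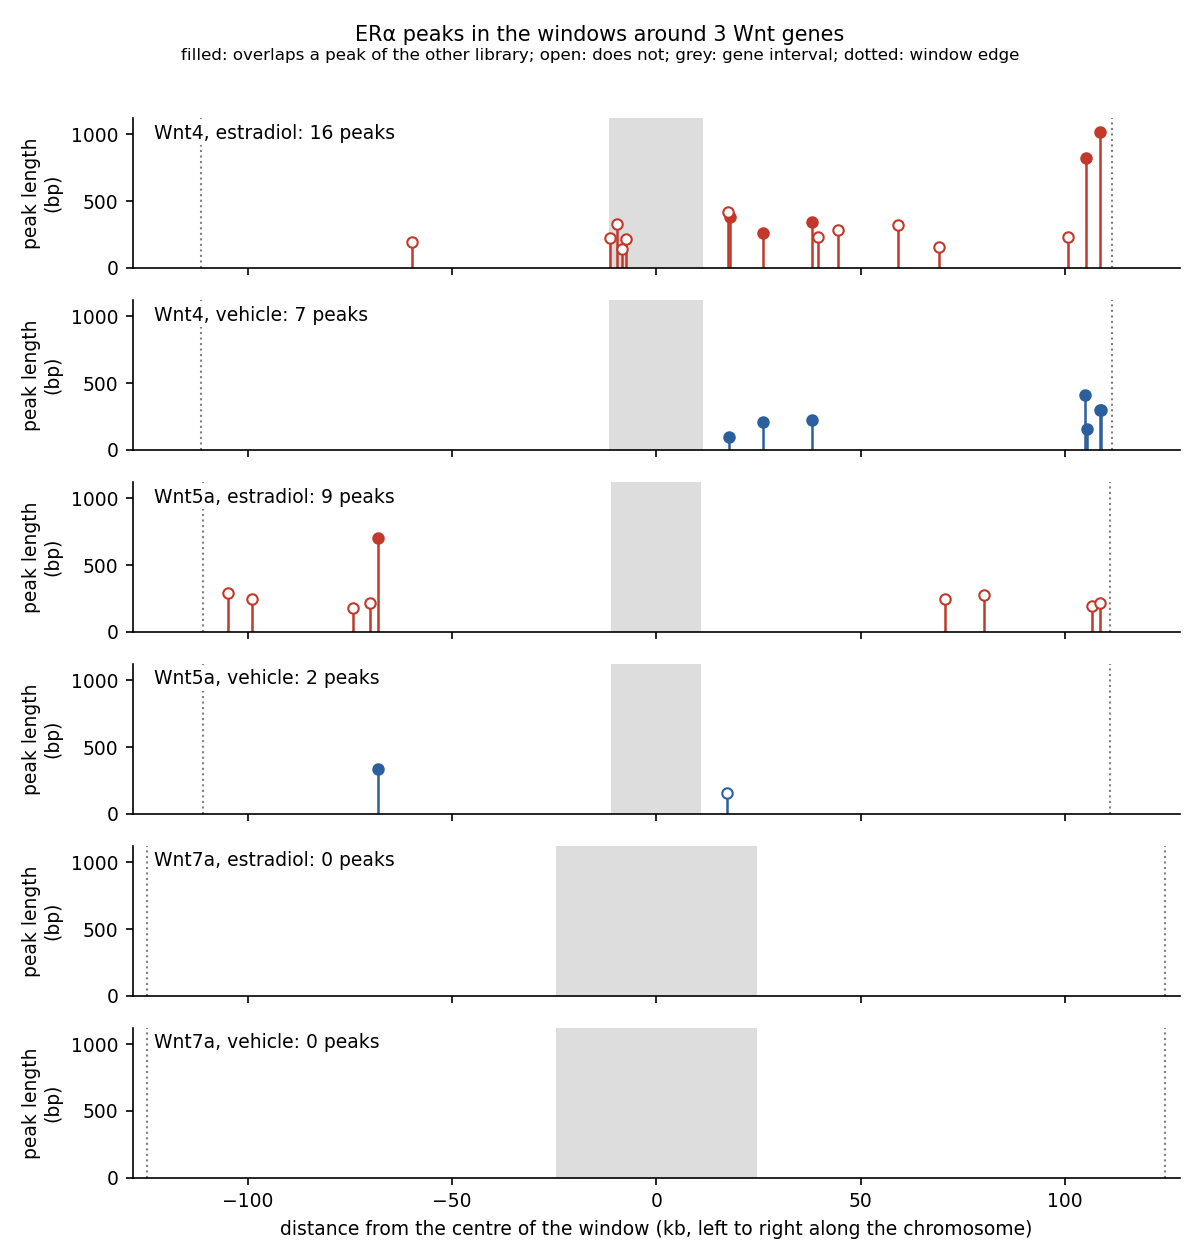
Each stem is an ERα peak, placed by its distance in kb from the centre of the window and drawn to its length in bp, with the estradiol library above the vehicle library for each gene. Filled heads overlap a peak of the other library, open heads do not, grey marks the gene interval and dotted lines the window's edges. The 4 estradiol peaks at the left edge of the Wnt4 interval have no vehicle peak, as do 13577 of the 17240 in the whole list, and both Wnt7a panels are empty.

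A run of 6 estradiol peaks followed, from 5.74 kb beyond the right edge of the Wnt4 interval, and 3 of these met a vehicle peak. The run spanned 27.3 kb, from 136861744 to 136889053. It was the only one of the window to meet the definition of a cluster used here, at least 5 peaks with gaps under 12.5 kb. Such clusters held 14.6% of the whole estradiol list and 6 of the 16 estradiol peaks at Wnt4. Its first peak, 417 bp from 136861744 to 136862160, ended 0.152 kb before a vehicle peak and did not overlap it. Its second, 384 bp from 136862235 to 136862618, covered that vehicle peak, which was 100 bp long, from 136862313 to 136862412, the shortest length in the list. The third, 260 bp from 136870497 to 136870756, covered a vehicle peak of 210 bp from 136870537 to 136870746. The fourth, 342 bp from 136882396 to 136882737, covered a vehicle peak of 226 bp from 136882429 to 136882654. All of these vehicle peaks lay inside the estradiol peak from end to end.

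At the far right of the Wnt4 window stood the 2 longest peaks of the 3 genes. The estradiol peak of 1020 bp, from 136952506 to 136953525, was one of 27 in the whole estradiol list of at least that length. It covered 2 vehicle peaks of 296 bp each, from 136952735 to 136953030 and from 136953116 to 136953411. The estradiol peak of 825 bp, from 136949235 to 136950059, was one of 123 of at least that length, and it overlapped vehicle peaks of 409 bp from 136949217 to 136949625 and 160 bp from 136949773 to 136949932. The 409 bp peak began 18 bp to the left of the estradiol peak and was the only vehicle peak of the shared sites to reach beyond its partner. Among all estradiol peaks, 0.296% overlapped 2 or more vehicle peaks, and 2 of the 16 at Wnt4 did. A longer peak has more room for such overlaps, and the share among peaks of like length is not given here. These sites are 93.2 and 96.5 kb beyond the gene interval, close to the edge of the window. The first estradiol peak beyond that edge was 118 bp long and 7.45 kb further. The first vehicle peak outside lay 905 kb from the same edge.

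At Wnt4, 5 of 16 estradiol peaks overlapped a vehicle peak (31.2%, 11.0 to 58.7), against 21.2% of the whole estradiol list. All 7 vehicle peaks overlapped an estradiol peak (100%, 59.0 to 100), against 71.3% of the whole vehicle list. Both intervals include the share of the whole list. The 11 estradiol peaks without a vehicle overlap stood at a median of 25.2 kb from the nearest vehicle peak, against the 61.3 kb of the whole list. The distances at Wnt4 ranged from 0.152 kb to 77.4 kb, which is their full range and not an interval for the median. Where an overlap had to cover 50% of both peaks, 28.6% of the vehicle peaks at Wnt4 were shared. The others covered less than that part of a longer estradiol peak. The share of the whole vehicle list under this stricter rule is not given here, so the 28.6% is not to be set beside the 71.3%. The longest estradiol peak without an overlap was the 417 bp peak, and the shortest the 139 bp peak in the gene interval.

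At Wnt5a both libraries left the gene itself without a peak. Its interval, 29318000 to 29340000, held 0 estradiol and 0 vehicle peaks. No estradiol peak lay within 50 kb of it on either side. The nearest estradiol peaks were 56.7 kb to the left and 59.5 kb to the right, which left a stretch of 138 kb, from 29261320 to 29399484. Stretches at least this long made up 21.0% of all those between estradiol peaks, and together 84.2% of all the sequence between them. The left flank held 5 estradiol peaks and 1 vehicle peak, and the right flank 4 estradiol peaks and 1 vehicle peak. The protein-coding neighbours of Wnt5a in RefSeq are Erc2 on the left, a scaffold protein of the presynaptic active zone, and Cacna2d3 on the right, a calcium channel subunit.

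The left flank of Wnt5a held its one shared site. The estradiol peak there was 700 bp long, from 29260620 to 29261319, and covered a vehicle peak of 339 bp from 29260837 to 29261175. It was the longest estradiol peak of the window, and the next in length were 291 bp from 29223978 to 29224268 and 278 bp from 29408859 to 29409136, which had no vehicle overlap. Estradiol peaks of 182 and 214 bp stood to its left, 6.00 and 1.76 kb from that vehicle peak, so that 3 estradiol peaks lay within 6.67 kb around 1 vehicle peak. The other vehicle peak, 155 bp from 29346213 to 29346367, was the vehicle site nearest to the gene, 6.21 kb beyond the right edge of its interval. It had no estradiol overlap, and the nearest estradiol peak was 53.1 kb away. It was also the only vehicle peak of the 9 in the 3 windows without an estradiol overlap. Of the 9 estradiol peaks, 1 was thus shared (11.1%, 0.281 to 48.2), and of the 2 vehicle peaks, 1 was (50.0%, 1.26 to 98.7). Both intervals include the shares of the whole lists, 21.2% for estradiol and 71.3% for vehicle peaks.

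The shared sites of both genes had longer peaks in the estradiol library. At the 4 sites where 1 estradiol peak met 1 vehicle peak, the estradiol peak was the longer in all 4, and it was the longer at 74.8% of such sites in the whole lists. The ratio of lengths, estradiol over vehicle, was 3.84, 1.24 and 1.51 at the Wnt4 sites from left to right and 2.06 at the Wnt5a site. At the remaining Wnt4 sites the estradiol peak of 825 bp stood against 569 bp in 2 vehicle peaks, and that of 1020 bp against 592 bp. Over the Wnt4 window, 5575 bp were covered by estradiol peaks and 1697 bp by vehicle peaks, a ratio of 3.29. Over the Wnt5a window, 2565 bp were covered by estradiol peaks and 494 bp by vehicle peaks, a ratio of 5.19, where the whole lists gave 3.93.

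**Figure D3:**
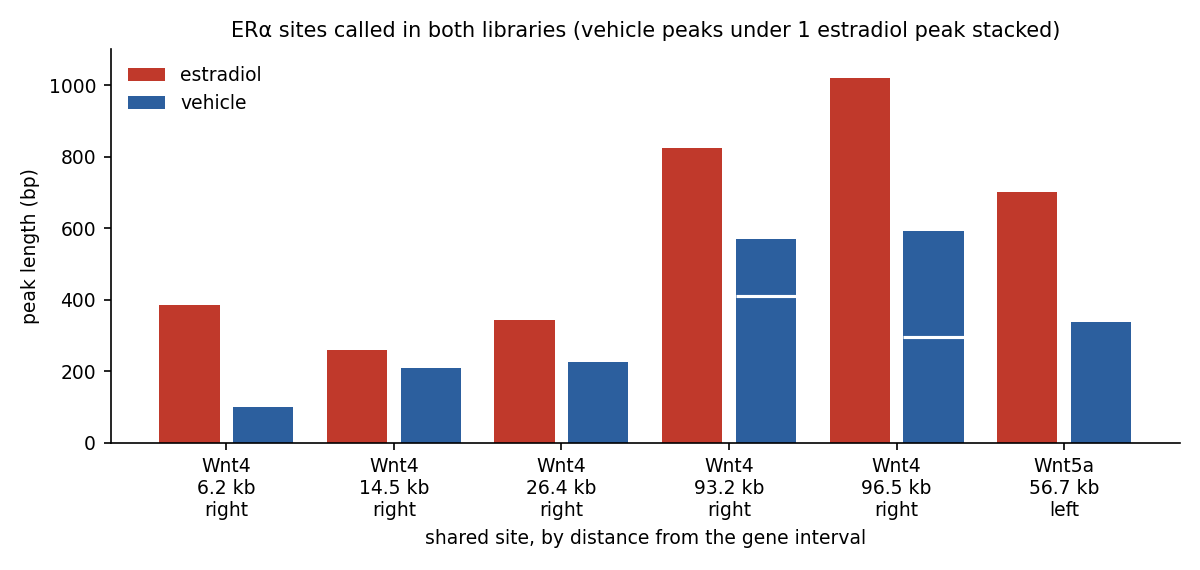
Peak length in bp at the 6 sites found in both libraries, with the estradiol bar left of the vehicle bar, labelled by gene and by distance and side from the gene interval. A white line divides 2 vehicle peaks under 1 estradiol peak. The estradiol bar is the taller at each site, from 260 bp against 210 bp to 1020 bp against 592 bp.

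At Wnt7a neither library had a peak over the gene or in its flanks. Its interval, 91313000 to 91362000, lay in a stretch of 267 kb free of peaks from both lists, from 91210277 to 91477354. In the combined lists, 8.99% of stretches between peaks were at least that long, and together they made up 70.4% of all the sequence between peaks. The window's left edge lay just beyond a dense group of estradiol peaks. The nearest of them, 501 bp from 91209776 to 91210276, was 2.72 kb outside the window and had no vehicle overlap. It closed a cluster of 5 estradiol peaks over 32.3 kb with 0 vehicle peaks, in the direction of Fbln2, which encodes the extracellular matrix protein fibulin-2 and is the next protein-coding gene on that side. On the right, toward Chchd4, a mitochondrial import factor, the first estradiol peak was 126 bp long and 16.3 kb outside the window. The first vehicle peak on that side was 150 bp long and 15.4 kb outside, and the last on the left was 125 bp long and 78.8 kb outside. The count of 0 therefore depends on the width of the window: 50 kb more on each side brought in 8 estradiol peaks and 1 vehicle peak.

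By length the peaks of the windows resembled the whole lists apart from a few long ones. Estradiol peaks had a median of 270 bp at Wnt4 (217 to 384) and 244 bp at Wnt5a (192 to 291), against 242 bp in the whole estradiol list. Vehicle peaks had a median of 226 bp at Wnt4 (100 to 409), and those at Wnt5a were 155 and 339 bp, against a median of 207 bp in the whole vehicle list. Of the estradiol peaks, 2 of 16 at Wnt4 and 1 of 9 at Wnt5a were in the longest 10.0% of their list. These 3 were shared sites. In the whole list shared estradiol peaks were longer too, with a median of 306 bp against 227 bp for the others. How many of the longest 10.0% of the whole list were shared is not given here. Of the vehicle peaks, 1 of 7 at Wnt4 and 0 of 2 at Wnt5a were in the longest 10.0%. The 19 estradiol peaks without a vehicle overlap in both windows ranged from 139 to 417 bp.

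**Figure D4:**
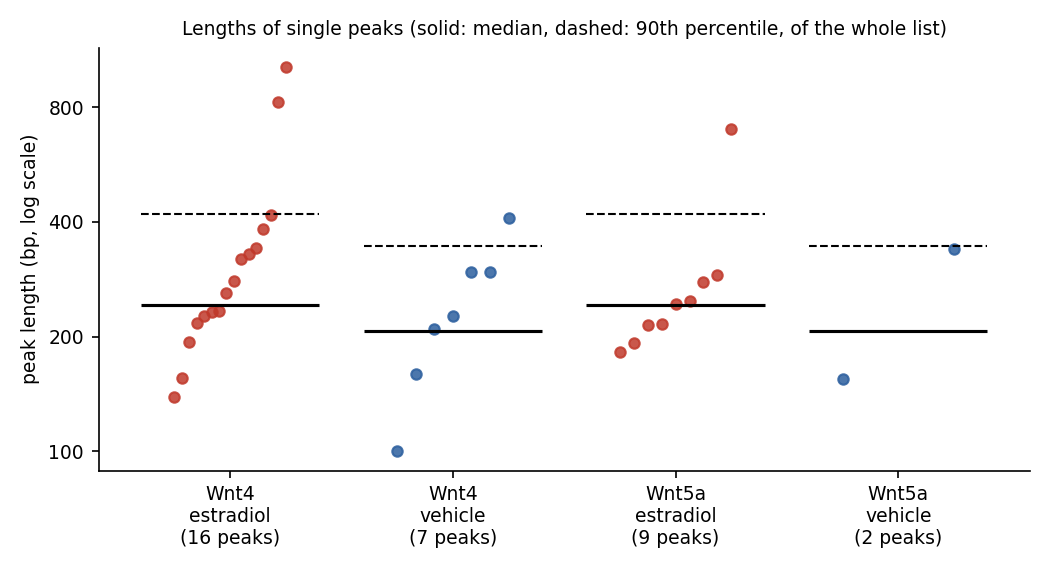
Length in bp (log scale) of every ERα peak at Wnt4 and Wnt5a, with the estradiol library left of the vehicle library for each gene. Solid and dashed lines give the median and the 90th percentile of the whole list. The 3 estradiol peaks above the dashed line, of 1020, 825 and 700 bp, are shared sites. Shared estradiol peaks were also longer in the whole list, with a median of 306 bp against 227 bp for the others.

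Since more peaks were listed after estradiol, the lists were also compared at 5184 peaks each, by keeping the longest estradiol peaks, down to 298 bp. The Wnt4 window then held 7 estradiol and 7 vehicle peaks, and the Wnt5a window 1 estradiol peak and 2 vehicle peaks, a ratio of 0.5. The 329 bp peak was the only one of the 4 in the Wnt4 gene interval long enough to be kept. Of the 7 vehicle peaks at Wnt4, 85.7% overlapped an estradiol peak in the reduced list, where 38.1% of the whole vehicle list did. The estradiol peaks of 825 and 1020 bp, which a cut by length keeps, each overlapped 2 of these vehicle peaks. Of the 7 estradiol peaks kept at Wnt4, 57.1% overlapped a vehicle peak, against 37.2% of the reduced estradiol list. These shares rest on few peaks, and no difference from the whole lists was tested. Whether the difference between the libraries at these genes comes from estradiol or from depth cannot be told apart with 1 library per condition.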

How the data were processed

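The series holds 5 single libraries from mouse uterus, of which the 2 ERα peak lists were used. The other libraries (RNA polymerase II, input) were not used here. Per the file headers, positions are on mm9, and the deposited columns are chromosome, start, end and peak name. Per the submitters' processing notes the build is mm9 and Partek was used, with no role or version. The aligner, caller and thresholds behind them were not given in the sources used here. Neither list holds a score or read count, so depth and its precision are unknown, and lists were made per library.

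From these lists, a peak was a member when it overlapped a window by at least 1 bp. Printed starts count from 1, taking the deposited ones to count from 0. Overlap between libraries needed 1 bp, counted with Python 3.11.15, numpy 2.4.6 and pandas 2.3.3 and equal to bedtools 2.31.1. Intervals (scipy 1.17.1) are exact Poisson for counts, exact binomial for shares and ratios, and order statistics for medians. The counter was tested on made lists with planted overlaps. With 1 library per condition no p-value is given. Named in full are vehicle peaks, peaks over the gene interval and the 3 longest estradiol peaks per window, and further peaks chosen after their values were seen. Genes, windows and lists were chosen with earlier results of these data known. RefSeq tables (GRCm38.p6) gave promoters, strands and the order of genes only. A planned count over other Wnt pathway genes needs an mm9 annotation and was not made. Alternatives were other overlap rules, windows, joined peaks, the longer part of each list and other tile sizes.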

Additional observations from a re-analysis of the deposited data

How the results depend on the processing

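No paired analysis was possible because each condition was 1 library. No replicate was left out, there being 1 per condition. Of 117 values recomputed under an alternative, 79 moved by less than their counting interval, or 1.5 times for a count. Windows widened by 50 kb on each side held 26 estradiol peaks at Wnt4, 15 at Wnt5a and 8 at Wnt7a, and 1 vehicle peak at Wnt7a, where ratios, lengths and shares have no value in the window as set. Windows narrowed by 50 kb held 0 estradiol peaks and 1 vehicle peak at Wnt5a, with a vehicle share of 0%, and 3 vehicle peaks at Wnt4. The longer part of each list left 9 estradiol peaks at Wnt4, 5 at Wnt5a, and 1 vehicle peak at Wnt5a, 100% of it shared. Keeping as many estradiol as vehicle peaks, the longest ones, left 7 estradiol peaks at Wnt4 and 1 at Wnt5a. This setting was chosen after seeing the data. The ratio at Wnt5a turned to below 1, at 0.5 against 4.50 in the full lists (0.931 to 42.8). The estradiol share there was 100%, which is 1 peak, where the whole reduced list gave 37.2%. Fewer peaks in the shorter lists follow from their construction. With 50% reciprocal overlap the estradiol share at Wnt5a was 0%, and the vehicle share was 0% there and 28.6% at Wnt4. No share of the whole lists under this rule is given here to set beside them. A gene interval widened by 10 kb held 1 vehicle peak at Wnt4 and 1 at Wnt5a, which left 0 in the right flank of Wnt5a.

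Among windows of 100 kb, set against the central 100 kb of each locus, 0.455% held at least the 10 estradiol peaks of Wnt4 and 1.37% at least its 3 vehicle peaks. The centre of Wnt5a held 0 estradiol peaks, as did 70.4% of windows, and 1 vehicle peak, reached by 14.1%. The centre of Wnt7a was empty in both lists, as were 70.4% of windows for estradiol and 85.9% for vehicle. Among windows of 500 kb the shares with at least as many peaks were 0.216% (estradiol, 33 peaks) and 1.12% (vehicle, 8) for Wnt4, 1.77% (20) and 5.03% (5) for Wnt5a, and 2.71% (17) and 23.8% (2) for Wnt7a. Among windows with any peak they were 1.69% and 0.814% for Wnt4 and 8.04% and 24.0% for Wnt5a. The unknown read depth limits each comparison of the lists.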
